A study of Saccharomyces cerevisiae with 41 samples.

Results

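Among the features quantified in this budding yeast (Saccharomyces cerevisiae) study are transcripts named ST followed by a number, a prefix that the sources used here do not expand. The 492 members described here are the ST transcripts whose span shares at least 1 base with an open reading frame (ORF) feature. There are 846 ST transcripts among 11587 features in all, and the other 354 ST transcripts lie over no ORF. Of 6542 ORF features, 5882 had an entry in the gene annotation, and whether each ORF makes a protein was not tested. The names of the features carry coordinates on the sacCer3 (R64) genome and no strand, so whether a member runs along or against its ORF cannot be read from them, and the overlap holds for either strand.

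All strains are labelled as BY4741 background and were grown at 25 °C, moved to 37 °C and harvested after 90 min, the control included. The mutants were csl4-ph, enp1-1, srm1-ts, dis3-1 and a strain with RRP6 deleted; they are called csl4, enp1, srm1, dis3 and rrp6 below. RNA was sequenced after oligo d(T) selection (control and csl4 with 3 libraries each, enp1 and srm1 with 2 each) and after depletion of ribosomal RNA (csl4 with 3 libraries; control, enp1, srm1, dis3 and rrp6 with 2 each). Tags from RNA 3′ ends were sequenced from control, csl4 and enp1 cells carrying an empty vector or a Pab1GFP vector, with 3 libraries for each of the 6 groups. The 41 libraries held 15589670 to 33251600 estimated counts each with oligo d(T), 12795066 to 32142495 after ribosomal depletion and 1458382 to 3027707 as tags. Nothing states that libraries of a group came from separate cultures, so p-values measure the spread between these libraries, which may be technical.

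Csl4 is a core subunit of the RNA exosome, the complex that trims and destroys RNA from its 3′ end, Dis3 is its catalytic subunit and Rrp6 is the exonuclease that joins it in the nucleus. Yeast makes many RNAs beyond the messengers, and those ended early by the Nrd1, Nab3 and Sen1 proteins are usually handed to the exosome, so that loss of exosome activity is known to raise them. Enp1 acts in assembly of the small ribosomal subunit, Srm1 is the exchange factor for the Ran GTPase of nuclear transport, and Pab1 is the main poly(A) binding protein. A transcript that lies over an ORF poses a particular measuring problem, since a read from the shared bases fits both features.

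The control strain differed from most mutants at marker genes. MF(ALPHA)1, the gene of the alpha-cell pheromone, stood at 1648 to 1775 counts scaled to a common library size (CPM) in the oligo d(T) control libraries, at 415.7 to 420.2 CPM in csl4, at 7.123 and 7.839 CPM in srm1 and below 1 CPM in enp1, whereas STE2, an a-cell gene, stood at 5.893 to 7.252 CPM in control, at 15.77 to 16.33 CPM in csl4, at 49.52 and 52.94 CPM in srm1 and at 365.6 and 383.2 CPM in enp1. LYS2, needed for lysine synthesis, was at 0 in every control and csl4 library of that table and at 453.3 to 475.4 CPM in enp1 and srm1. MET17, another marker gene, was at 322.1 to 329.5 CPM in control, 69.47 to 78.41 CPM in csl4, 0.0847 and 0.06712 CPM in enp1 and 0 in srm1. After ribosomal depletion LYS2 stood at 389.0 to 462.2 CPM in dis3 and rrp6, against 0.7691 and 0.3135 CPM in control. The strains thus differed at these genes although their labels give the same background. In ribo-depleted RNA, RRP6 itself had 189.7 and 179.7 CPM in control and 39.94 and 38.14 CPM in the RRP6 deletion. Strain background and mutation therefore cannot be told apart in the comparisons below, which also share their control libraries.

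Most members are long and heavily shared. Their median length was 1020.5 bases (41 to 4913) against 473 for ST transcripts over no ORF, 443 overlap 1 ORF, 47 overlap 2 and 2 overlap 3. With respect to the ORF that a member overlaps most, 147 run over its end, 141 span it, 118 run over its start and 86 lie inside it. Bases of a member that no other feature covers are called its own bases here. By that measure, chosen after the values had been seen, 308 members have no base of their own, 159 have some but under 50%, and 25 have 50% or more. ORF features hold the reading frame (6514 of 6542 begin with ATG), so untranslated parts of a messenger can count as own bases. Own bases thus do not separate a member from the whole messenger of its ORF. Besides ORFs, 344 members overlap a feature of the F or R class, 247 a NUT (Nrd1-unterminated transcript) and 70 a CUT (cryptic unstable transcript).

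The members that the results turn on show what an overlap looks like in sequence. The lines below come from the RefSeq genome of the R64 build. They give the edge of 7 members within the ORF, on the strand of the ORF and 5′ to 3′. Bases inside the member are in capitals. ST5840 covers only the first 12 bases of AQY2, start codon included, and ST5587 only the last 10 bases of YJR114W, stop codon included, whereas the others share 121 (ST7233) to 3497 bases (ST1682) with the ORF.
ST6102 (YLR400W): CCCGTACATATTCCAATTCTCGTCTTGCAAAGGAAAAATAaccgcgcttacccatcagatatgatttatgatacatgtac
ST7233 (YPR146C): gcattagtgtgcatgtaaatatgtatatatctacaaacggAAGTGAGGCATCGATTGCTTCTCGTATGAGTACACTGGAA
ST5840 (AQY2): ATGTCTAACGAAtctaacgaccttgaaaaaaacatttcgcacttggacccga
ST5587 (YJR114W): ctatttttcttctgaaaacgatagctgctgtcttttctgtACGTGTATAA
ST1682 (FLO11): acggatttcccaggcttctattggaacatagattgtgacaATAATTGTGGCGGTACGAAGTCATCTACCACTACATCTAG
ST2183 (REX2): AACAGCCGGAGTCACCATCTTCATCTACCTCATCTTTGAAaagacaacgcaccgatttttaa
ST1574 (POT1): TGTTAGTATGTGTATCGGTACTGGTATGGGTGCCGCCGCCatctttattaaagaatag
These edges lie at chrXII:922348-922427 (plus strand) for ST6102, chrXVI:825428-825507 (minus) for ST7233, chrXII:36310-36361 (minus) for ST5840, chrX:639002-639051 (plus) for ST5587, chrIX:393029-393108 (minus) for ST1682, chrXII:259738-259799 (minus) for ST2183 and chrIX:40191-40248 (minus) for ST1574. Among the members over an ORF end, 14 of 147 left at most 30 bases of the ORF uncovered, and the median left 567; among those over an ORF start, 17 of 118 left at most 30 and the median left 254. The GC content of the members (median 39.7%) equalled that of ORFs (39.7%) and was above that of ST transcripts over no ORF (37.2%). The letters TCTT, a short motif known for Nab3, occurred on either strand in the 200 bases from the lower coordinate of 92.8% of members against 95.1% of other features at least that long, and GTAA, known for Nrd1, in 80.8% against 81.7%; TCTTG, which contains TCTT, occurred in 43.9% against 51.2%, and GTAG in 67.7% against 67.5%.

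As a percentage of each library's deposited total, the members took up more in every mutant, but not in every mutant when the totals were adjusted by TMM, the scaling behind the CPM values and calls. With oligo d(T), the 492 members held 0.659% ± 0.0064 (SD, n = 3) of the counts in control, 1.2933% ± 0.0248 (n = 3) in csl4, 1.4745% ± 0.0262 (n = 2) in enp1 and 0.9077% ± 0.0061 (n = 2) in srm1. In ribo-depleted RNA the share was 0.7774% ± 0.0146 (n = 2) in control, 1.282% ± 0.0135 (n = 3) in csl4, 1.2195% ± 0.0219 in dis3, 1.1705% ± 0.0417 in enp1, 1.0103% ± 0.0378 in srm1 and 0.8598% ± 0.016 in rrp6 (n = 2 each). On these totals no mutant library overlapped the control libraries in either table. With TMM-adjusted totals, compared after the values had been seen, the oligo d(T) means were 0.902% in control, 1.04% in csl4, 1.15% in enp1 and 1.01% in srm1. After depletion they were 1.05% in control, 1.12% in csl4 and in dis3, 1.07% in enp1, 1.0% in srm1 and 0.939% in rrp6, so that srm1 and rrp6 lay below control and enp1 overlapped it. The TMM factors with oligo d(T) were 0.7261 to 0.738 in control and 1.226 to 1.268 in csl4. On the deposited totals and without the 10 members with most counts, the means were 0.4584% in control, 0.8252% in csl4, 0.9474% in enp1 and 0.7171% in srm1 with oligo d(T), and 0.4356% in control, 0.8832% in csl4 and 0.5809% in rrp6 after depletion. Fewer cells making a transcript and less of it per cell cannot be told apart in such libraries.

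**Figure D1:**
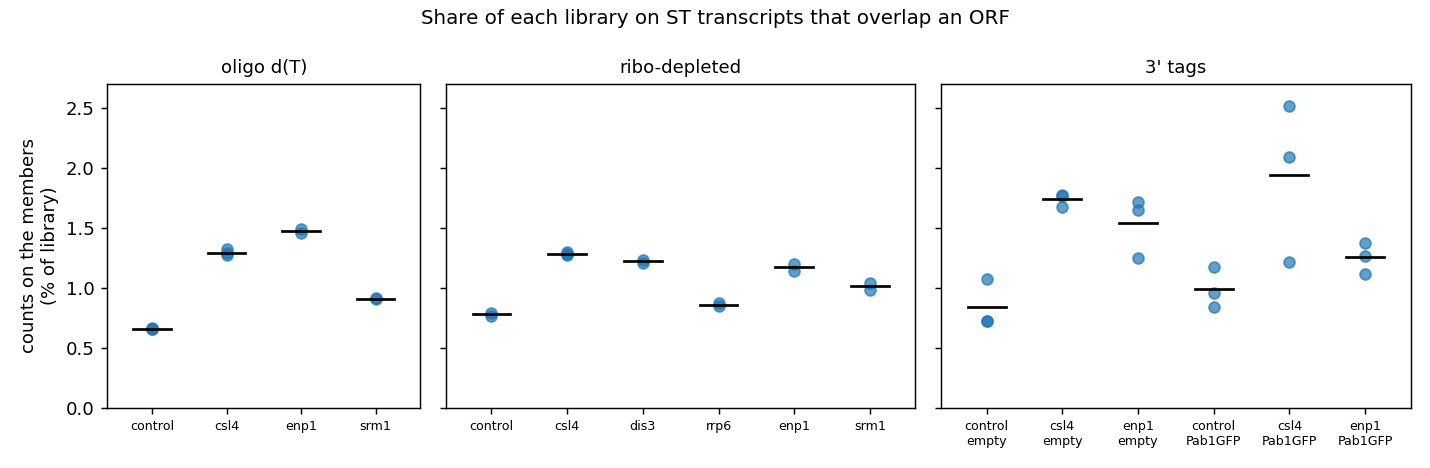
Share of each library's estimated counts on the 492 members, in percent, for oligo d(T), ribo-depleted and 3′ tag libraries; points are libraries and bars group means, on the deposited totals. The oligo d(T) control libraries lie near 0.659% and the csl4 libraries near 1.2933%, and the tag groups spread more widely.

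In the tags the shares were 0.8417% ± 0.2012 in control, 1.7357% ± 0.058 in csl4 and 1.5383% ± 0.251 in enp1 with the empty vector, and 0.9903% ± 0.1701, 1.9397% ± 0.6614 and 1.252% ± 0.1316 with Pab1GFP (n = 3 each). With TMM-adjusted totals the empty-vector means were 1.19% in control, 1.59% in csl4 and 1.29% in enp1, and the enp1 libraries overlapped control. ST6851, over the histidine gene HIS3, was a large part of this. It stood at 273.0, 258.9 and 133.8 CPM in control and at 6479, 6203 and 5751 CPM in csl4 with the empty vector, while it stayed under 10 CPM in every oligo d(T) and ribo-depleted library. Leaving out the 10 members with most tags, ST6851 among them, the empty-vector means were 0.3838% in control, 0.6812% in csl4 and 0.6921% in enp1.

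The spread of a member between replicate libraries differed with its own bases. In the oligo d(T) table, 84 members (17.1%) were at 0 in one library of a group and at 50 or more counts in another library of that group, against 4.43% of ORFs. Of these 84, 79 were among the 308 members with no own bases, 5 among the 159 with under 50% and none among the 25 with 50% or more. The ribo-depleted table gave 90, 4 and 0 of 94. Median coefficients of variation within groups were 12.2%, 5.84% and 5.1% in the 3 classes with oligo d(T). ST1381 inside SCW4, a cell wall gene, shows the pattern, with 20.73, 42.33 and 88.72 CPM in the 3 oligo d(T) control libraries and 21.03 and 2.274 CPM in srm1.

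Against control, more members were called higher than lower in every mutant of both tables, whereas more ORFs were called lower than higher. Of the members, 384 had enough oligo d(T) counts to test, and edgeR's quasi-likelihood test called 143 higher and 92 lower in csl4 at a Benjamini-Hochberg adjusted p under 0.05, where 38.2% of all features tested were called higher and 39.6% lower. The members' own percentages were 37.2% higher and 24.0% lower, so their share of rises was near the background and their share of falls below it. ORFs gave 26.7% and 55.2%, and ST transcripts over no ORF gave 53.3% and 9.69%. The median log2 fold change was 0.33 over the members, 1.05 over ST transcripts with no ORF and -0.38 over ORFs.

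The other oligo d(T) comparisons had like counts. In enp1, 134 members were higher and 87 lower (background 37.8% and 38.6%), and in srm1, 145 were higher and 96 lower (background 39.3% and 37.7%). The members' percentages were 34.9% and 22.7% in enp1 and 37.8% and 25.0% in srm1. In both mutants the share of rises among the members was again close to that of all features.

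In ribo-depleted RNA 390 members were tested. The exosome mutants gave 136 higher and 67 lower in csl4 (background 35.4% and 41.1%), 123 and 63 in dis3 (background 30% and 38.8%) and 104 and 75 in rrp6 (background 30.5% and 35.6%). Without the csl4 library whose description, unlike its title, names poly(A) RNA, csl4 gave 136 and 63. Enp1 gave 140 and 61 (background 34.8% and 37%) and srm1 139 and 92 (background 39.4% and 37%). With library scaling on ORFs alone, the splits were 174 higher and 44 lower in csl4, 150 and 37 in dis3 and 127 and 55 in rrp6, and that scaling moved the median of all features up by 0.49, 0.418 and 0.313 on the log2 scale. The median log2 fold change of the members was 0.38 in csl4, 0.06 in dis3, 0.00 in rrp6, 0.47 in enp1 and 0.38 in srm1.

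The counts differed by own bases and by place in the ORF. In csl4 with oligo d(T), 17 of 25 members with 50% or more own bases were called higher, 96 of 157 with under 50%, and 30 of 202 with none; in rrp6 the counts were 12 of 24, 66 of 157 and 26 of 209. By place, 50.0% of the tested members over an ORF start were higher in csl4 with oligo d(T), and 42.4% of those spanning the ORF. The shares there were 32.5% over its end and 12.2% inside it, against 38.2% of all features. That order did not hold in every comparison. In srm1 with oligo d(T) the shares were 38.9% over a start, 43.2% spanning, 34.2% over an end and 30.6% inside. All features stood at 39.3% in srm1. In csl4 after depletion, members spanning the ORF had the highest share and those inside it the lowest. These are descriptions; the classes also differ in how far their counts can be separated from other features.

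**Figure D2:**
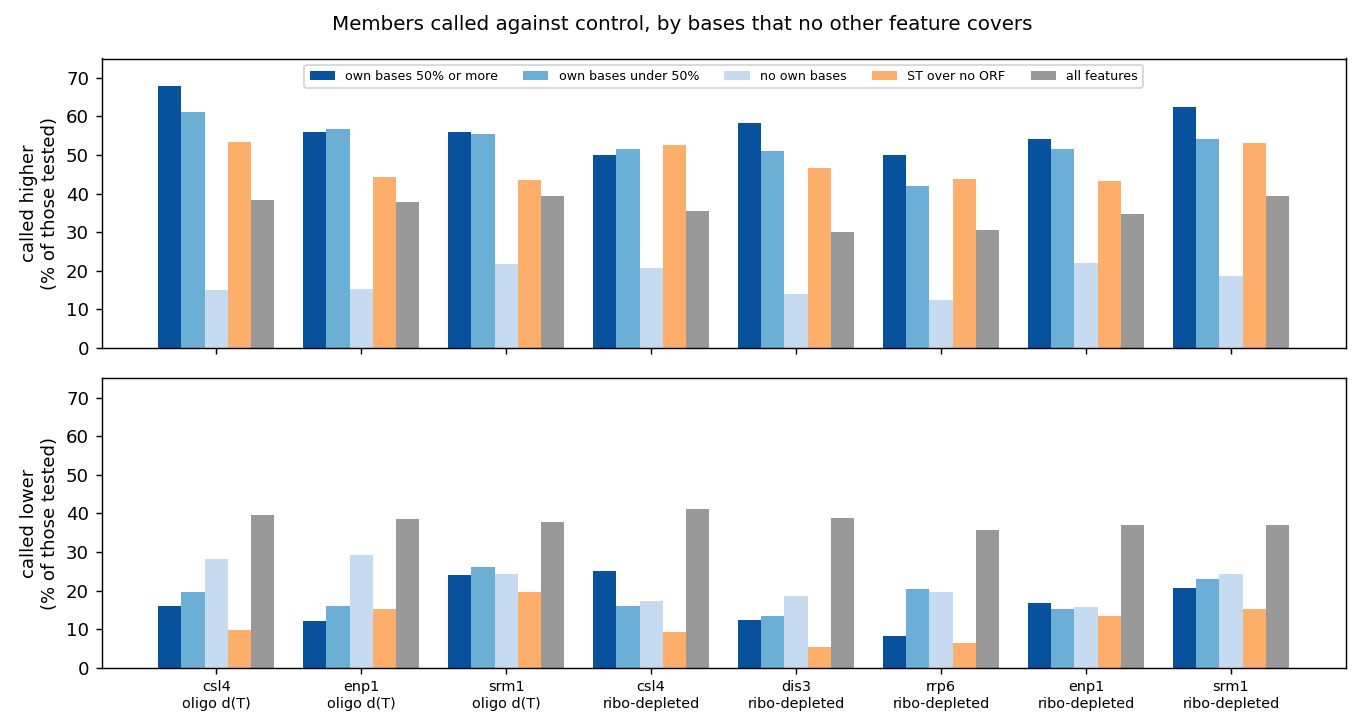
Percent of tested members called higher (upper panel) or lower (lower panel) than control in each mutant and table, by the share of a member's bases that no other feature covers, beside ST transcripts over no ORF and all features. In csl4 with oligo d(T) the bars for higher run from 68.0% (50% or more own bases) to 14.9% (none), with all features at 38.2%.

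The 25 members with at least 50% own bases share the fewest bases with other features, though untranslated parts of a messenger may lie in those bases. In the 8 comparisons with control across both tables, 12 to 17 of them were higher and 2 to 6 lower, where 30% to 39.4% of all features were higher and 35.6% to 41.1% lower. ST6102, ST7233, ST5840 and ST5587 were called higher in all 8 comparisons and in both tag comparisons, which share control libraries within a table, and are described first. Being higher in all 8 was not rare. It held for 11.9% of the members tested in all 8 and for 10.7% of all features. Lower in all 8 were 3.78% and 13.7%.

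ST6102 runs over the start of YLR400W and has 420 of its 745 bases to itself (chrXII:921643-922387). It had 5.567, 6.806 and 6.337 CPM in the oligo d(T) control libraries, 45.75, 53.55 and 52.0 CPM in csl4, 55.7 and 55.37 CPM in enp1, and 12.39 and 12.01 CPM in srm1. After ribosomal depletion it had 5.384 and 5.538 CPM in control, 87.38 to 92.86 CPM in csl4, 84.3 and 84.08 CPM in dis3, 76.84 and 76.1 CPM in rrp6, 90.5 and 81.81 CPM in enp1, and 25.33 and 25.32 CPM in srm1. No mutant library overlapped control, and srm1 was the lowest of the mutants in both tables. The log2 fold change was 4.03 (SE 0.0685, edgeR adjusted p = 5.14e-11) in csl4, 3.95 (SE 0.0716) in dis3 and 3.81 (SE 0.0718) in rrp6 against 2.21 (SE 0.0761) in srm1. Summing the member with every feature it overlaps gave 3.41 in csl4, 3.43 in dis3, 3.34 in rrp6 and 1.72 in srm1, each called higher. This quantity is called the locus sum here and was introduced after the values had been seen. It takes the whole count of each feature, also where only part of that feature lies in the member.

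ST7233 runs over the end of YPR146C (chrXVI:825059-825467, 288 of 409 bases its own) and was highest in srm1, where ST6102 was lowest among the mutants. Its oligo d(T) libraries had 3.589, 2.656 and 3.433 CPM in control, 8.763, 11.39 and 10.34 CPM in csl4, 14.82 and 14.63 CPM in enp1, and 41.37 and 41.13 CPM in srm1. After depletion the control had 1.709 and 1.254 CPM, csl4 9.254 to 10.54 CPM, dis3 8.172 and 6.98 CPM, rrp6 8.0 and 8.195 CPM, enp1 13.88 and 13.35 CPM, and srm1 29.13 and 26.5 CPM. Its srm1 libraries were thus the highest in both tables. The log2 fold changes in srm1 were 3.67 (SE 0.156, edgeR adjusted p = 7.57e-08) and 4.22 (SE 0.168, adjusted p = 1.06e-08). The locus sum, which holds YPR146C and neighbours, was 1.64 and 1.26 higher there on the log2 scale, was 0.08 in csl4 with oligo d(T), which was not called, and was lower in both tag comparisons.

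ST5840 shares only 12 bases with AQY2, an aquaporin gene, and has 781 of 793 bases to itself (chrXII:36350-37142). Its oligo d(T) libraries had 3.443, 3.569 and 3.345 CPM in control, 24.8, 24.51 and 23.73 CPM in csl4, 15.25 and 14.06 CPM in enp1, and 23.38 and 25.55 CPM in srm1. After depletion it had 5.127 and 5.851 CPM in control and between 11.83 and 29.52 CPM in the mutants, dis3 being lowest and srm1 highest. The log2 fold changes were 2.82 (SE 0.0846) in csl4 and 2.82 (SE 0.0892) in srm1 with oligo d(T), and 1.19 (SE 0.0978) in dis3 and 1.37 (SE 0.0976) in rrp6 after depletion.

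ST5587 shares 10 bases with the end of YJR114W (chrX:639042-639762, 711 of 721 bases its own). With oligo d(T) it rose from 3.296, 3.403 and 3.168 CPM in control to 9.571, 9.695 and 10.68 CPM in csl4, 11.29 and 10.91 CPM in enp1, and 12.11 and 11.84 CPM in srm1. Its tags went from 6.713, 7.977 and 11.74 CPM in control to 42.78, 48.99 and 34.82 CPM in csl4 with the empty vector, a log2 fold change of 2.24 (SE 0.222, edgeR adjusted p = 5.38e-07). The groups did not overlap in either table, and the smallest of its 8 changes was 0.8 (SE 0.177) in rrp6.

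Other members of these 25 did not move together. ST2498 over MIN4 was higher in all 8 comparisons, with 0.57 to 0.73 on the log2 scale for oligo d(T) and 1.31 to 1.96 after depletion. ST5243, with 2446 of 2569 bases its own beside the flocculin gene FLO5, rose by 1.27 (SE 0.0677) in dis3 and fell by 0.53 (SE 0.0697) in srm1 after depletion. ST0952 over YER158C rose mainly in srm1, from 18.83, 22.33 and 24.73 CPM to 136.0 and 130.2 CPM with oligo d(T), a log2 fold change of 2.6 (SE 0.106), and was 2.57 (SE 0.0845) higher after depletion. ST5916 over EMP46, a gene of transport from the endoplasmic reticulum, rose by 2.94 (SE 0.259) in srm1 with oligo d(T) and by 3.51 (SE 0.323) after depletion, and its tags went from 1.021 to 1.678 CPM in control to 17.01 to 26.8 CPM in csl4.

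**Figure D3:**
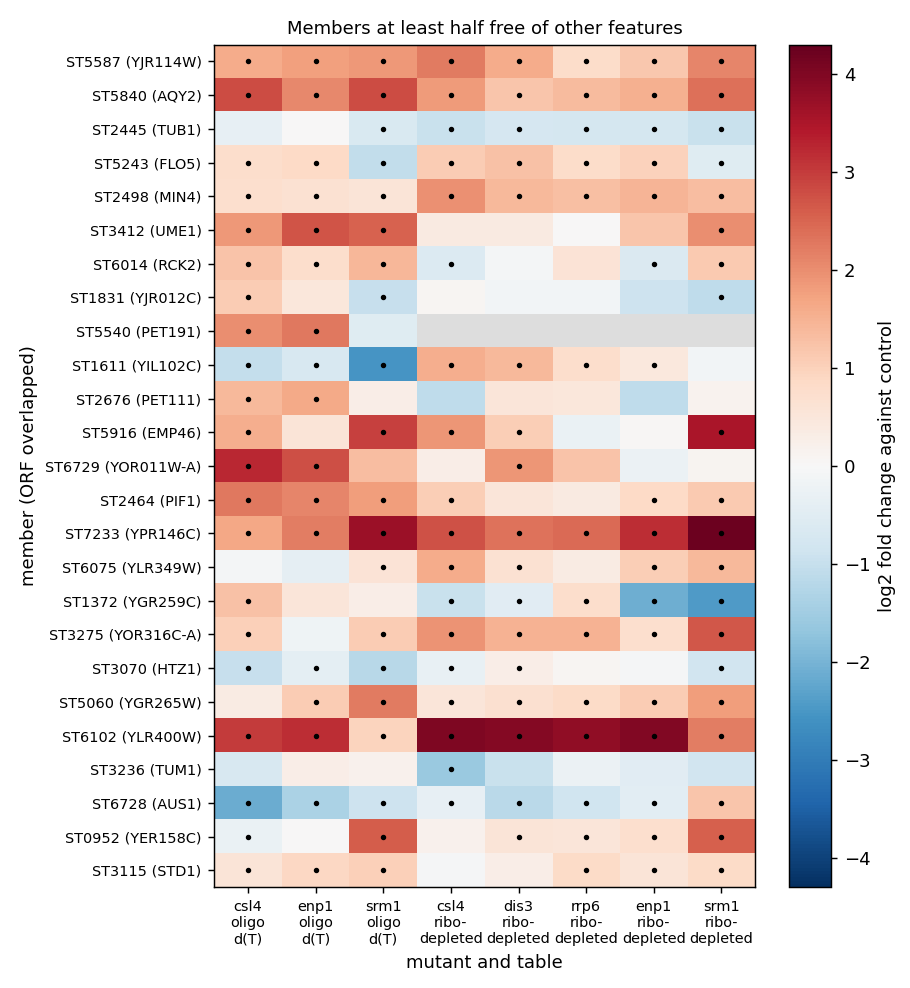
Log2 fold change against control of the 25 members with at least 50% own bases (rows, with the ORF overlapped) in the 8 comparisons of the oligo d(T) and ribo-depleted tables (columns); dots mark calls and grey cells were not tested. ST6102 reaches 4.03 in csl4 and ST7233 reaches 4.22 in srm1, while ST6728 and ST1611 have both signs.

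Some members of this class fell, or changed sign between the tables. ST6728, beside the sterol transporter gene AUS1, went from 15.97, 14.11 and 16.9 CPM in control to 3.325, 3.928 and 3.383 CPM in csl4 with oligo d(T), a log2 fold change of -2.14 (SE 0.152), but in srm1 it was lower with oligo d(T) (-0.9, SE 0.166) and higher after depletion (1.19, SE 0.16). Its locus sum did not follow these falls. With oligo d(T) the sum had 37.65, 36.02 and 31.95 CPM in control and 37.84, 38.43 and 32.23 CPM in csl4. In srm1 it had 71.71 and 65.41 CPM, above control where the member lay below. ST1611 over YIL102C was lower in csl4 with oligo d(T) (-1.02, SE 0.168) and higher after depletion (1.57, SE 0.134). ST3070, which spans the gene of the histone variant H2A.Z, HTZ1, fell in the csl4 tags from 272.5, 275.5 and 285.4 CPM to 116.0, 97.56 and 104.5 CPM, a log2 fold change of -1.39 (SE 0.108, edgeR adjusted p = 3.87e-08). Its enp1 tags, at 241.5 to 250.8 CPM, also lay below control, without a call. The locus sum had the same CPM as ST3070 in these tag libraries, so the HTZ1 ORF, wholly inside the member, held none of these tags. Tags of HTZ1 and of ST3070 therefore cannot be told apart here.

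Among the 159 members with under 50% own bases, the 5 with the largest smallest rise over the 8 comparisons were picked after the values had been seen, from those with at least 100 own bases. ST1682 runs over the end of FLO11, the gene of a cell surface flocculin, and covers 3497 bases of it (chrIX:389244-393068). It had 14.28, 15.02 and 20.51 CPM in the oligo d(T) control libraries, 118.3, 92.88 and 95.49 CPM in csl4, 74.73 and 77.92 CPM in enp1, and 55.44 and 56.75 CPM in srm1. After depletion the control had 4.956 and 5.747 CPM, csl4 103.0 to 107.6 CPM, dis3 48.53 and 49.31 CPM, and rrp6 29.67 and 31.18 CPM. The groups lay apart, with csl4 highest in both tables, and the log2 fold change in csl4 was 4.31 (SE 0.077, edgeR adjusted p = 6.71e-11) after depletion with a locus sum of 2.01.

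ST1754 spans NCA3, a gene tied to mitochondrial ATP synthase expression. It rose with oligo d(T) from 15.82, 13.78 and 13.99 CPM in control to 165.7, 139.1 and 140.0 CPM in csl4, and to 269.5 and 269.6 CPM in enp1. Its csl4 tags were at 207.7, 217.9 and 222.3 CPM against 23.5, 15.34 and 11.74 CPM in control, a log2 fold change of 3.68 (SE 0.246), and in the RRP6 deletion it was 3.55 (SE 0.132) higher after depletion. The locus sum rose in all of these comparisons, by 2.69 in csl4, 3.69 in enp1, 3.17 in the csl4 tags and 3.63 in rrp6. ST5225 over RGD3, ST4665 over PUG1 and ST0444 over the peroxisomal malate dehydrogenase gene MDH3 were the others; the locus sum around ST0444 was lower, not higher, in all 8 comparisons (-0.47 to -2.65).

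**Figure D4:**
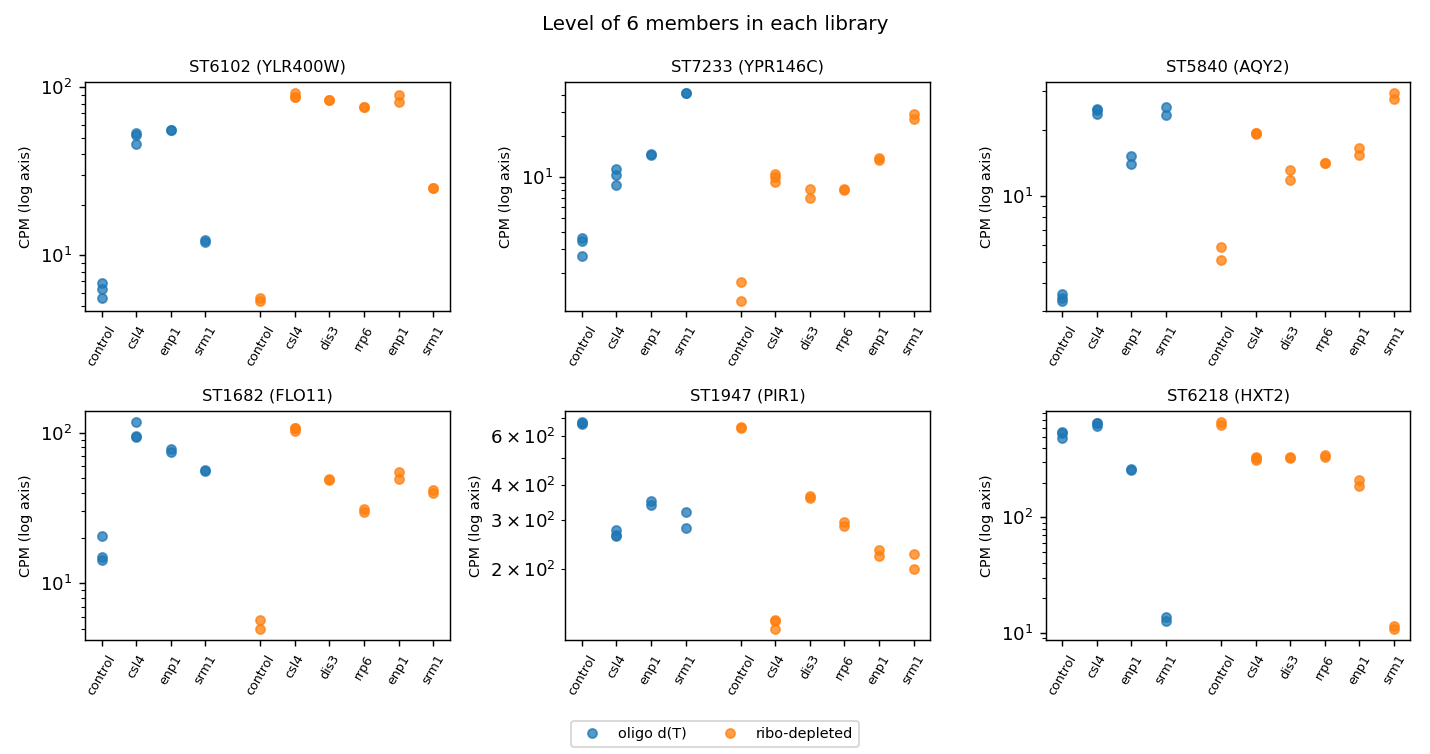
CPM (log axis) of 6 members in each oligo d(T) (blue) and ribo-depleted (orange) library; each point is a library. ST6102 and ST1682 lie lowest in control, ST1947 lies highest in control, and ST6218 drops to 10.67 to 13.71 CPM in srm1.

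The most abundant members in control cells lie over genes for the cell wall, sugar uptake and oxidation. ST1947 spans PIR1, a cell wall protein gene (chrXI:141261-142823), and was the highest in the oligo d(T) control with 669.5, 677.8 and 664.2 CPM. It fell to 263.1, 265.4 and 276.4 CPM in csl4, 349.8 and 339.4 CPM in enp1, and 279.8 and 321.3 CPM in srm1. The same held after depletion, where control had 647.0 and 641.5 CPM, csl4 120.9 to 131.2 CPM, dis3 359.5 and 364.4 CPM, and rrp6 285.6 and 293.8 CPM. No mutant library reached a control library. The log2 fold changes lay between -0.83 and -2.34, and the locus sum was lower in all 8 comparisons. Of the members called lower in all 8, ST1947 was among those with the largest smallest fall. So were ST5611 over PGU1, ST4661 over DMC1, ST4746 over RMR1 and ST6624 over PDR18, which have no own bases.

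ST6218 covers all but the first 31 bases of HXT2, a glucose transporter gene, and has 62 of its 1657 bases to itself. It had 545.4, 541.2 and 489.8 CPM in the oligo d(T) control and 12.67 and 13.71 CPM in srm1, a log2 fold change of -5.32 (SE 0.0758, edgeR adjusted p = 1.73e-10), and fell by 5.89 (SE 0.0819) after depletion. The locus sum fell by 5.48 and 5.21. ST0681, which spans the low-affinity glucose transporter gene HXT3, moved the other way, from 133.5, 131.7 and 138.1 CPM in control to 355.5 and 352.7 CPM in srm1 and to 396.7, 406.9 and 412.5 CPM in csl4. ST2708 over ADH6, an alcohol dehydrogenase gene, was lower in all 8 comparisons by 0.4 to 1.09 on the log2 scale, and so was its locus sum.

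ST2470, which spans the lactate dehydrogenase gene CYB2, gave opposite directions in the tables for csl4 and enp1, while srm1 was lower in both. It had 409.1, 380.0 and 312.4 CPM in the oligo d(T) control, 991.9, 686.7 and 677.3 CPM in csl4, 1612 and 1771 CPM in enp1, and 122.1 and 130.9 CPM in srm1. After depletion the control had 2046 and 1744 CPM, csl4 534.4 to 644.3 CPM and enp1 663.9 and 897.0 CPM. So csl4 was 1.1 (SE 0.161) higher in one table and 1.65 (SE 0.138) lower in the other on the log2 scale, with the locus sum at 1.09 and -1.65. The CYB2 ORF was at 0 in every library, so this locus sum is nearly the member alone and no second measure. RNA of CYB2 and of ST2470 cannot be told apart in these counts. In tags the control also lay above both mutants, with 3185 to 3627 CPM against 1267 to 1671 CPM in csl4.

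The largest called changes include many members with few or no own bases, and there the member and the locus sum could differ. ST1574 over the start of POT1, the peroxisomal thiolase gene, was at 0 in all 3 oligo d(T) control libraries and at 12.67, 13.08 and 15.17 CPM in csl4. Against a floor of 3 counts per library this is at least 55.8-fold higher, and the locus sum rose by 1.67 on the log2 scale. This bound and those below count only what was assigned to the member, and reads of shared bases may have been given to another feature. ST0010, which has no own bases, lies over ACS1, an acetyl-CoA synthetase gene. It was at 0 in both ribo-depleted control libraries and at 113.0, 96.53 and 100.2 CPM in csl4, at least 362-fold higher. Its locus sum was 2.59 higher. The ACS1 ORF had 35.29 and 33.02 CPM in that control and 141.2, 121.8 and 125.7 CPM in csl4. Here member and locus moved the same way.

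For others the size or the direction differed. ST2183 over the exonuclease gene REX2 had 0, 0.415 and 0.4401 CPM in the oligo d(T) control and 37.48, 34.7 and 31.75 CPM in csl4, a log2 fold change of 6.96 (SE 0.47), while its locus sum was 0.34 higher. ST1336 over YGR201C and PCT1 was at 0 in control and at 17.97, 16.66 and 13.87 CPM in csl4, at least 66.2-fold higher. Its locus sum fell by 0.43, from 207.1, 207.8 and 214.0 CPM in control. The YGR201C ORF had 25.64, 24.57 and 21.74 CPM in that control, so most of the sum lay on other features. ST3437 over INA17 was at least 18.8-fold higher in csl4 with a locus sum that fell by 0.71. ST3742 spans UGA2 and had 3.37, 29.13 and 23.76 CPM in the oligo d(T) control and 0 in both srm1 libraries, at least 183-fold lower, while its locus sum rose by 2.2. In the last 3 of these loci, the member and the locus sum had opposite directions.

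Of the 143 members higher in csl4 with oligo d(T), the locus sum was higher for 101, lower for 27 and not called for 15, where 39.2% of all features were called higher and 40% lower with the sums in place of the members. The sum holds the member's own counts, and of all 492 loci 56.1% were higher and 35.2% lower, including 85 of the 149 whose member was tested and not called. Of the 92 lower members, the locus sum was lower for 58, higher for 27 and not called for 7. Member and locus sum moved the same way for the larger part of the called members in each comparison below. In enp1 with oligo d(T) the locus sum was higher for 92 of 134 higher members and lower for 53 of 87 lower ones (background 38.8% and 39%), and in srm1 for 113 of 145 and 68 of 96 (background 40% and 38.3%). After depletion, the counts were 107 of 136 and 47 of 67 in csl4 (background 36.4% and 41.9%), 89 of 123 and 36 of 63 in dis3 (background 31% and 39.4%), and 79 of 104 and 56 of 75 in rrp6 (background 31.4% and 36.6%). They were 102 of 140 and 43 of 61 in enp1 (background 35.6% and 37.9%), and 108 of 139 and 65 of 92 in srm1 (background 40.2% and 37.6%). Of all 492 loci, 42.5% to 53.5% were higher and 33.5% to 41.3% lower in these comparisons. Of the 35 lower members with own bases in csl4 with oligo d(T), 31 had a lower locus sum, against 27 of 57 among those with none. The higher members there differed less, with a higher locus sum for 81 of 113 with own bases and 20 of 30 with none. Which features a read was given to was not tested.

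**Figure D5:**
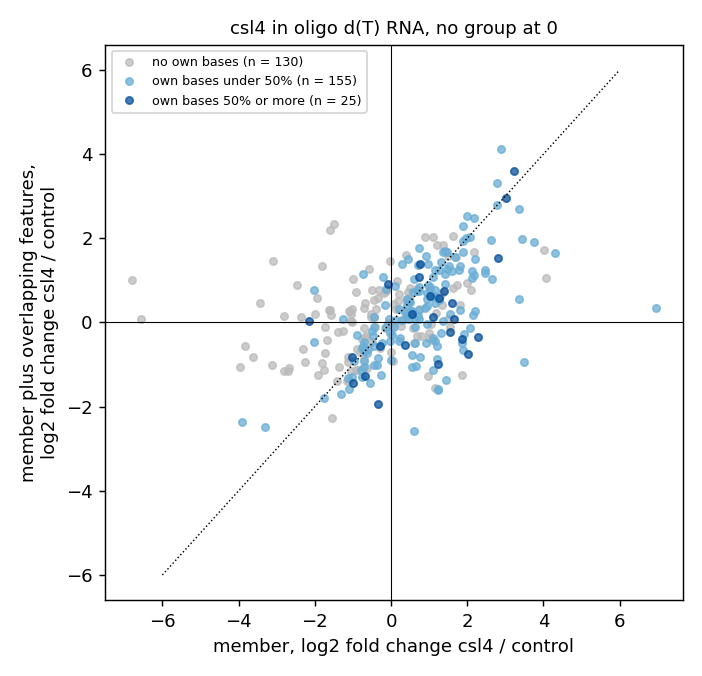
Log2 fold change of csl4 against control with oligo d(T) for 310 members with counts in both groups (x) and for the sum of the member and the features it overlaps (y), by own bases; the dotted line marks equal values. Of the 310, 213 have the same sign, and the median absolute difference is 0.94 with no own bases and 0.53 with under 50%.

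The change in csl4 was larger or smaller with oligo d(T) than after depletion for many members. In a joint fit of 405 members, 65 had a csl4 change that was higher with oligo d(T) and 79 one that was lower, where 27.5% and 27% of all features were called. In enp1 the counts were 71 and 74 (background 22.6% and 30.3%) and in srm1 49 and 68 (background 22.6% and 27.7%). The members' shares, 16% and 19.5% in csl4, 17.5% and 18.3% in enp1 and 12.1% and 16.8% in srm1, were below the background in both directions. Among the 183 tested members with own bases they were 28.4% and 30.6% in csl4, 32.2% and 21.9% in enp1 and 18% and 25.7% in srm1. When the locus sum had to be called too, the counts were 43 and 52 in csl4 (background 28.3% and 28.2%). They were 30 and 39 in enp1 (background 23.4% and 31.1%), and 32 and 51 in srm1 (background 23.5% and 28.8%). Of all 492 loci, 34.3% were higher and 42.3% lower in csl4, 32.9% and 36.4% in enp1, and 32.1% and 40% in srm1. In enp1 the locus sum was called the opposite way for 18 of the 71 and 13 of the 74.

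The tags sampled 255 members with enough counts. With the empty vector, 63 were higher and 25 lower in csl4 (background 32.2% and 15.4%), and 55 higher and 21 lower in enp1 (background 25% and 13.9%). The locus sum was also higher for 56 of the 63 in csl4 and 49 of the 55 in enp1 (background 33.3% and 26.1%, and 40.6% and 34.3% of all 443 loci tested), and lower for 19 of the 25 and 16 of the 21 (background 16.3% and 14.9%). ST4980, inside PTI1, a gene of the cleavage factor that ends messengers, was at 0 in the 3 control libraries and at 25.77, 38.01 and 20.25 CPM in csl4, at least 16.6-fold higher, with a locus sum 2.27 higher. ST0314 over the genes YCR022C and YCR023C fell from 71.61, 50.32 and 84.24 CPM to 12.89, 19.43 and 9.313 CPM in csl4. For enp1, leaving out the first control library lowered the count of higher members from 55 to 36.

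ST6851 over HIS3 had log2 fold changes of 4.79 (SE 0.24, edgeR adjusted p = 2.18e-10) in csl4 tags and 3.71 (SE 0.228) in enp1 tags, and the locus sum changed by 1.86 and 0.99. The 2 vectors also differed at it, with 616.2, 614.6 and 522.4 CPM in control with Pab1GFP against 273.0, 258.9 and 133.8 CPM with the empty vector. What the vectors carry beyond their names is not given in the sources used here, and their part in these counts was not tested.

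Few members were called between the Pab1GFP and the empty vector. The tag test could miss many changes. With simulated tag counts for csl4 against control, it recovered 25.4% of 2-fold and 57.6% of 4-fold changes. In control, edgeR called 2 members higher and 0 lower (background 0.22% and 0.173%), with 22 at an unadjusted p under 0.05 and DESeq2 calling 4 and 1. The 2 were ST6851, and ST5715, which spans YKL068W-A and went from 14.55, 19.02 and 15.32 CPM to 40.34, 61.59 and 61.34 CPM (log2 fold change 1.74, SE 0.224). In csl4, 2 were higher and 1 lower (background 0.236% and 0.173%), ST4707 over DCV1 (1.3, SE 0.264), ST3070 over HTZ1 (0.55, SE 0.107) and ST0447 (-0.67, SE 0.114), which covers the end of the histone ubiquitin ligase gene BRE1. In enp1, 5 were higher and 6 lower (background 1.71% and 4.95%). ST5715 was 1 of these 5, going from 32.59, 40.42 and 24.35 CPM to 52.7, 68.05 and 74.93 CPM, and ST5549, which spans the cytochrome gene CYC1, was 1 of the 6, going from 40.15, 46.9 and 37.76 CPM to 21.81, 26.82 and 18.05 CPM. These small counts moved with the test and with single libraries: DESeq2 gave 7 higher and 11 lower in csl4, and without the first csl4 Pab1GFP library there were 5 and 10.

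Each member was also set beside the ORF it overlaps most. In csl4 with oligo d(T), 337 pairs had both features tested: 49 were higher in both, 53 lower in both, 40 had a higher member and a lower ORF, and 10 the reverse. In rrp6 the 358 pairs gave 36, 44, 20 and 3 in the same order. Pearson's r of the log2 fold changes across all pairs lay between -0.04 and 0.13 in the 8 comparisons, and across the pairs of members with 50% or more own bases (25 with oligo d(T), 24 after depletion) between 0.30 and 0.41 with oligo d(T) and between 0.57 and 0.70 after depletion. These are descriptions over pairs that share libraries and bases. Genes of RNA decay and termination were read beside ORFs as a whole, of which 26.7% were higher and 55.2% lower in csl4 with oligo d(T), 24.8% and 57.7% after depletion, and 23.2% and 49.5% in rrp6. Of the 18 genes listed for the exosome and its cofactors, 6 were higher and 8 lower in csl4 with oligo d(T), 4 and 11 in csl4 after depletion, and 10 and 2 in rrp6; over the 8 comparisons 4 to 10 were higher and 2 to 11 lower. Of 13 genes of cytoplasmic decay, 2 were higher and 9 lower in csl4 with oligo d(T), 0 and 10 in csl4 after depletion, 3 and 6 in rrp6, and 6 and 6 in srm1 with oligo d(T), with 0 to 6 higher and 6 to 10 lower over the 8. Of the genes of Nrd1, Nab3 and Sen1 termination, 3 of 7 tested were higher and 2 lower in csl4 with oligo d(T), and 1 of 6 higher and 4 lower after depletion.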

How the data were processed

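The deposited tables hold Salmon estimated counts for 11587 features in 41 libraries (oligo d(T) 10, ribo-depleted 13, 3′ tags 18), per the submitters' processing notes, which name Salmon 0.12.0, Trimmomatic and the sacCer3 (R64) build; reads were paired-end 50 or, for tags, single 90 bases per the labels. One csl4 ribo-depleted library carries a poly(A) description but a ribo-depleted title, and the title was used. The authors' expected counts were rounded, scaled by TMM, filtered with filterByExpr and tested with edgeR 4.0.16 (R 4.3.3) quasi-likelihood fits over all features and all groups of a table, with Benjamini-Hochberg adjustment over all features tested. CPM are counts scaled to the TMM-adjusted library total. SE is the log2 fold change divided by the root of F. Folds against a group at 0 are bounds at 3 counts per library. The method was tested on simulated counts. A planned split by strand could not be made, as the files carry no strand, and own bases and the locus sum stand in for it. Named members are the 5 highest in control, the 3 largest called changes each way per comparison (2 in tags), those changed the same way in all 8 comparisons, and the largest interactions; the members with most own bases were added after their values were seen. The members and lists were chosen with earlier results of these data known. Alternatives were other scalings, filters and sample sets, DESeq2 1.42.0, a replicate block and leaving out each library. The check for copied libraries found 0 identical pairs.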

Additional observations from a re-analysis of the deposited data

Results flagged for a closer look

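Of the members whose change against control differed between oligo d(T) and ribo-depleted RNA by the joint edgeR test of the difference itself (65 and 79 in csl4, 71 and 74 in enp1, 49 and 68 in srm1), the largest differences at 10 CPM or more in a group, 12 in all, are given here, each in a member with no own bases and with 0 in some libraries. In csl4, ST6027 over BOP2 (adjusted p = 0.0327) had 13.08 CPM in a single csl4 oligo d(T) library and 0 in the control, but 18.2 and 14.0 CPM in the ribo-depleted control and 0 in csl4. ST5241 over CRG1 (adjusted p = 0.00976) had 3.381 and 3.818 CPM in 2 of 3 csl4 oligo d(T) libraries, and 7.862 and 14.63 CPM in the ribo-depleted control alone. ST7186 over UBA3 (adjusted p = 0.0499) had 26.43 to 35.2 CPM in ribo-depleted csl4 against 0 in control, and 0 to 5.364 CPM in either oligo d(T) group.

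ST4836 over SCY1 had 12.86 to 17.0 CPM in the oligo d(T) control and 0 in every oligo d(T) mutant library, while after depletion it was at 0 in control and at up to 21.56 CPM in csl4; the interaction had an edgeR adjusted p = 0.0112 in csl4, 0.022 in enp1 and 0.0201 in srm1. ST1381 inside SCW4 had 20.73 to 88.72 CPM in the oligo d(T) control, and 0 in control but 7.765 and 6.15 CPM in enp1 after depletion (adjusted p = 0.000924 in enp1 and 0.0131 in srm1). ST4580 over FCY21 and FCY22 was at 0 in the oligo d(T) control and at 77.08 and 93.7 CPM in enp1, and had 19.14 and 15.15 CPM in the ribo-depleted control (edgeR adjusted p = 4e-06 in enp1 and 3.14e-06 in srm1). ST4395 over SHE9 (edgeR adjusted p = 0.0214 in enp1) had 0 in both ribo-depleted enp1 libraries and in 1 of 2 control libraries. ST5494 over IRC8 (edgeR adjusted p = 0.0303 in srm1) had 33.37 to 41.02 CPM in the oligo d(T) control, 17.04 and 7.692 CPM in srm1, and after depletion 40.25 and 38.24 CPM in control and 0 in srm1; it was thus below control in both tables. ST4580 was above control in both tables for enp1 and srm1, and ST7186 had a higher csl4 mean in both.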

How the results depend on the processing

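Of 420 recomputed counts of called members, 372 stayed within 1.5 times the main count and 48 did not. Scaling on ORFs gave 44 lower in csl4 and 37 in dis3 after depletion, 0 higher for Pab1GFP in csl4 and 3 higher in enp1, and turned the log2 change of ST0952 in csl4 with oligo d(T) to 0.05, of ST3070 and ST6728 in csl4 after depletion to 0.18 and 0.14, of ST3837 in srm1 after depletion to 0.1 and of ST5792 in dis3 and rrp6 to 0.16 and 0.18. Without the first ribo-depleted control library the enp1 interaction of ST4395 was -0.19. For Pab1GFP, DESeq2 gave 4 higher and 1 lower in control, 7 and 11 in csl4 and 11 lower in enp1; the compared groups alone gave 5 and 1, 0 and 0, and 0 and 1; no filter gave 0 higher in csl4 and 2 lower in enp1; leaving out ribosomal DNA rows gave 1 higher in csl4. Leaving out 1 library gave 36 to 48 higher in enp1 tags, 0 to 1 lower for Pab1GFP in control, 0 to 5 higher and 0 to 10 lower in csl4, and 1 to 4 higher and 2 to 6 lower in enp1. Requiring the locus sum to be called too, an alternative chosen after seeing the data, gave 58 lower in csl4 and 53 in enp1 with oligo d(T), 36 lower in dis3, 1 higher, 0 lower and 2 higher for Pab1GFP in control, csl4 and enp1, 43 and 52 for the csl4 interaction, 30 and 39 for enp1 and 32 higher for srm1. With TMM-adjusted totals, also added after seeing the data, the members' share minus control in percentage points was 0.137 in csl4, 0.245 in enp1 and 0.112 in srm1 with oligo d(T), 0.0667 in csl4 and in dis3, 0.022 in enp1, -0.112 in rrp6 and -0.0515 in srm1 after depletion, and 0.397 in csl4 and 0.0972 in enp1 tags. The cause of these shifts was not tested. Replicate numbers did not pair the samples (correlation of deviations between -0.186 and 0.097); with a replicate block csl4 with oligo d(T) had 136 higher and 86 lower and no count moved by over 1.5 times. Of the log2 changes of named members, 3852 recomputed values kept direction and call, 277 lost the call and 7 turned. The tag libraries are the shallowest, and bounds against 0 cover counting error only.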
